A study of Mus musculus with 5 samples.

Results

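Strong promoter-to-promoter contacts common to both lines of supporting cells of the mouse gonad were described from capture Hi-C. A contact belongs here if it joins a pair of promoter bins on the same chromosome, on chromosomes 1 to 9, and scored at least 10 in either cell type's column alike, Sertoli and pre-granulosa. Members were chosen by these scores, which are therefore given as a description, and each pair of bins was counted once. The rule found 2289 pairs among 18297 listed promoter pairs (12.5%; at a score of 5 in both columns the share is 43%), made by 2935 of 10621 promoter bins and 3082 rows of the deposited table.

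Supporting cells surround the germ cells, as Sertoli cells in the testis and as pre-granulosa cells in the ovary. The libraries were made at E13.5, in mid-gestation, from 100000 sorted cells each, 3 from Sertoli cells of the genotype Sox9IRES-GFP and 2 from pre-granulosa cells of the genotype Enh8-mCherry. Each cell type was sorted by the fluorescence of its own reporter, so a group holds whichever gonadal cells that reporter marks. Contact scores give no expression level against which the identity of the sorted cells could be checked. Capture Hi-C joins DNA fragments that lie close together in the nucleus and enriches the junctions that hold chosen fragments, the baits, which here mark transcript starts. The values are CHiCAGO scores, which rise as a contact exceeds the number of read pairs awaited at its distance. Each cell type has 1 score per contact for all of its libraries, so no value has a replicate error, no difference between the cell types could be tested, and the read depth is unknown.

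Promoters of active genes often lie near each other in the nucleus, through loops held by CTCF and cohesin, through shared sites of transcription, or because their genes are neighbours. Genes of tandem families, such as olfactory receptors, sit side by side in arrays that are silent in most tissues. Housekeeping genes tend to have promoters rich in CpG dinucleotides and to cluster in gene-dense stretches of chromosomes.

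Promoter sequences of a few leading pairs are printed first, since later results refer to them. Znrf1 and Ldhd form the pair with the highest lower score, Med19 lies in a bin with 10 strong partners, Ccni and Ccng2 are a pair of cyclin genes, and Olfr639 and Olfr640 are olfactory receptor genes with a strong contact. They were chosen after the scores and motif matches had been seen. Each runs 5′ to 3′ on the gene's strand from 250 bases before to 50 bases after a RefSeq gene start on GRCm38.p6, and capitals mark matches to the searched motifs on either strand.
Znrf1, first listed start (chr8:111536390-111536689, plus strand): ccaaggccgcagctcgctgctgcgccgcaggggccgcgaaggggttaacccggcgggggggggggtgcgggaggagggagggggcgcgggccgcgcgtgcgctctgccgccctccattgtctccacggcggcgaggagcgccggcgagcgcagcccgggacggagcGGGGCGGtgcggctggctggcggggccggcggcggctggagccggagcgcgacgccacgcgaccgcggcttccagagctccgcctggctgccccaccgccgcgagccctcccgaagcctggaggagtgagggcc
Znrf1, second listed start (chr8:111538093-111538392, plus strand): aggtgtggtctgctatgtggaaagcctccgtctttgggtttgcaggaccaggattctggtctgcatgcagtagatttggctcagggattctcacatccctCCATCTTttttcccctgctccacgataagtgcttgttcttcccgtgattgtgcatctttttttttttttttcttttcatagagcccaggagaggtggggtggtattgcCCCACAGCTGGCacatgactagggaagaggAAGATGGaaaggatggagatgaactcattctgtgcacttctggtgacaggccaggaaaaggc
Ldhd (chr8:111630287-111630586, minus strand): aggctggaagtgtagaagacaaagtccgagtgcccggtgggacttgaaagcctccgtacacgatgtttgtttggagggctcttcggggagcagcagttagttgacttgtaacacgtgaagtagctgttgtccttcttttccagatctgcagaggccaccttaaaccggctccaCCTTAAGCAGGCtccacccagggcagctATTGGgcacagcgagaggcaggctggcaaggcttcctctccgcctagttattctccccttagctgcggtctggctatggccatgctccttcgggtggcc
Med19 (chr2:84678152-84678451, plus strand): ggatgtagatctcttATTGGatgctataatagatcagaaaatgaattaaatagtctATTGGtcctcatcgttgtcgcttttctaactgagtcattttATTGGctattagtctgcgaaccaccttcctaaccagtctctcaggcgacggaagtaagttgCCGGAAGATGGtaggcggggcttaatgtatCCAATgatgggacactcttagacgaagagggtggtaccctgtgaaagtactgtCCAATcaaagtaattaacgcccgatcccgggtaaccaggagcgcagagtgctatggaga
Ccni (chr5:93206446-93206745, minus strand): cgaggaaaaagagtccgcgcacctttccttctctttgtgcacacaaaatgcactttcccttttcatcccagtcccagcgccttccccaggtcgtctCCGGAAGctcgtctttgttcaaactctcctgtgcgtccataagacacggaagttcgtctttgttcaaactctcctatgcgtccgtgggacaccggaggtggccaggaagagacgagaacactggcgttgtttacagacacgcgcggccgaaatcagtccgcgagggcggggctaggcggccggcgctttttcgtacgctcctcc
Ccng2 (chr5:93267323-93267622, plus strand): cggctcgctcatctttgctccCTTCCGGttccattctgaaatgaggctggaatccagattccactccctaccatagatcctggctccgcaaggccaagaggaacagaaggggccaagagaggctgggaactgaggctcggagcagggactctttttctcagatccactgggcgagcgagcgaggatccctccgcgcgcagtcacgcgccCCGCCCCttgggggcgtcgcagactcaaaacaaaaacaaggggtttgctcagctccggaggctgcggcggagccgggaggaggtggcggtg
Olfr639 (chr7:104012651-104012950, minus strand): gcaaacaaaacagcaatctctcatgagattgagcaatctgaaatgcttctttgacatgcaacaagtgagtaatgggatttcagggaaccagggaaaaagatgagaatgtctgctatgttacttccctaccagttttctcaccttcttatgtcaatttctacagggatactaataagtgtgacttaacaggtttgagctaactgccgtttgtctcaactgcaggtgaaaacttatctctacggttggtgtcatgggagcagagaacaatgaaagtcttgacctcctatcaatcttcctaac
Olfr640 (chr7:104022267-104022566, minus strand): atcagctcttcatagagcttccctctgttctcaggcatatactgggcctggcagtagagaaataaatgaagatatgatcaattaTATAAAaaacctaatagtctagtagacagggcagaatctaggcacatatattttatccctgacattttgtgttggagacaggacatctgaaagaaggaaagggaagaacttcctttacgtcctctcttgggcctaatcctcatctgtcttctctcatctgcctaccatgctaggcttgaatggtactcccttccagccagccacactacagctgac
In Ldhd the capitals are the CTCF core, 77 to 66 bases before the start, and an NFY motif, CCAAT, on the opposite strand. The second Znrf1 start holds the same CTCF core 42 to 31 bases before it, besides YY1 motifs (AAGATGG) on both strands. Znrf1 is read from the plus strand and Ldhd, at the higher coordinate, from the minus strand, so the matches face each other. The first Znrf1 start holds an Sp1 motif, GGGGCGG, and no CTCF core. Med19 holds 5 NFY motifs and an ETS motif, CCGGAAG, that overlaps a YY1 motif. Ccni and Ccng2 each hold an ETS motif, which Ccng2 carries on the opposite strand beside an Sp1 motif. Olfr639 matched none of the 8 motifs and Olfr640 held a TATA box, TATAAA. The observed over expected CpG ratio was 1.12 in Ccni, 0.73 in Ccng2 and 0.80 in Med19. It was 0.16 in Olfr639 and 0.07 in Olfr640. A match is only a description of these letters, and 8.61% of the 32851 promoters in the RefSeq table hold the CTCF core.

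Most strong shared contacts were short. Their median distance between bin centres was 22.0 kb (95% order-statistic interval 21.5 to 22.8), with quartiles of 11.4 and 54.2 kb. The other 16008 listed promoter pairs had a median of 58.9 kb (58.2 to 59.7). Pairs under 20 kb made up 44.2% of the members and 13.9% of the other pairs, and pairs of 100 kb or more 10.4% and 29.5%. The shortest distance listed was 10.03 kb, so touching bins do not enter. These intervals, like the Wilson intervals given for shares, cover counting error only, and neighbouring bins are not independent of each other.

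The share of listed promoter pairs that were strong in both cell types fell with distance. It was 31.2% between 10 and 20 kb (29.7 to 32.9), 11.9% between 20 and 50 kb, 8.32% between 50 and 100 kb, 4.98% between 100 and 200 kb and 4.41% beyond (3.45 to 5.63). Contacts between a promoter and a bin without one were less often strong up to 200 kb. A contact between promoters has a bait at both ends and the other kind at a single end. The part of this in the shares was not tested. Counted by rows of the table, 11.1% of the contacts between promoters and 4.02% of those with other bins reached 10 in both cell types. Between 10 and 20 kb these shares were 25.1% (24.0 to 26.3) and 6.60% (6.003 to 7.24). At 100 to 200 kb they were 4.85% (4.29 to 5.47) and 3.31% (2.80 to 3.91). Beyond 200 kb they were 4.09% and 2.88%, and there the intervals overlapped (3.28 to 5.08 and 2.14 to 3.87).

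**Figure D1:**
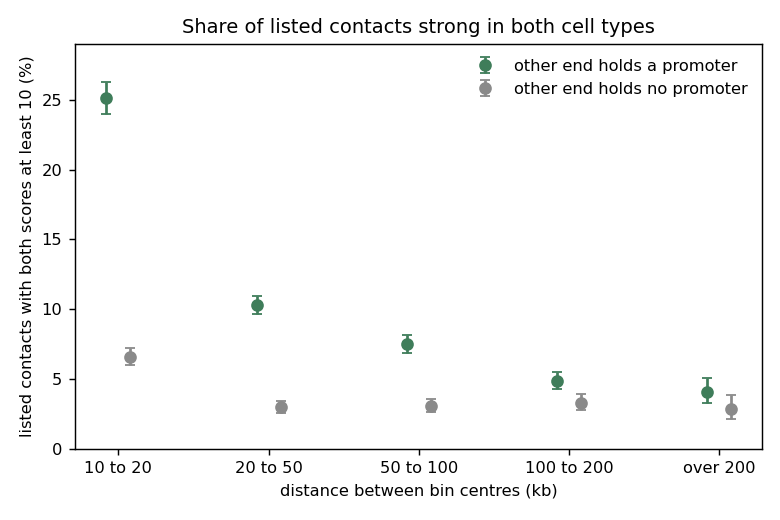
Share of listed contacts with both scores at least 10, in percent (y axis), by distance between bin centres in kb (x axis), for contacts whose other end holds a promoter (green) or none (grey); bars are 95% Wilson intervals. Promoter contacts fall from 25.1% to 4.09% and stay above the other contacts up to 200 kb, while the intervals overlap beyond it. Contacts between promoters have a bait at both ends, the others at a single end.

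Most contacts passed over no gene. No protein-coding RefSeq gene lay wholly between the ends of 1585 of the 2289 pairs (69.2%, 67.3 to 71.1), against 44.6% of the other pairs. These counts include promoters of the same gene. Among pairs of different genes the shares were 62.3% (1147 of 1840, 60.1 to 64.5) and 38.1% (37.3 to 38.9). Within distance classes, same-gene pairs included, they were 95.1% and 94.3% between 10 and 20 kb, 66.1% (62.4 to 69.6) and 62.2% (60.9 to 63.6) between 20 and 50 kb, 34.9% (30.3 to 39.8) and 31.5% (30.1 to 32.9) between 50 and 100 kb, 23.6% (17.96 to 30.3) and 16.0% (14.8 to 17.3) between 100 and 200 kb, and 23.0% (14.2 to 34.9) and 11.3% (9.68 to 13.1) beyond 200 kb. A single gene was skipped by 14.6% of the members and 18.5% of the other pairs, and 5 or more by 3.01% and 12.2%, up to 21 and 75.

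Gene density around the members depended on distance. Under 20 kb a median of 16 protein-coding genes (15 to 17) had their midpoint in the 500 kb around a member, against 14 (14 to 15) for the other pairs. Between 100 and 200 kb the order turned, with 11 genes (10 to 14) around members and 15 (14 to 15) around other pairs. Beyond 200 kb the medians were 8 (7 to 9) and 10 (10 to 11). Of the chromosomes, 7 held 24.6% of the members and 23.2% of all listed promoter pairs. The share of listed pairs that were members ran from 9.41% on chromosome 4 (8.08 to 10.9) to 13.9% on chromosome 9 (12.5 to 15.3).

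Both scores of a member had to reach 10, and the row with the higher lower score was used, so the rule itself draws them together. Sertoli scores had a median of 17.0 and ran from 10.001 to 86.1, and pre-granulosa scores had a median of 14.4 and ran from 10.001 to 46.1. The scores of 1735 pairs (75.8%) lay within 1.5 times of each other. The Sertoli score was higher in 1520 pairs (66.4%, 64.4 to 68.3), as it was in 65.6% of the other listed pairs (64.9 to 66.4). It was over 2 times the pre-granulosa score in 116 pairs, and the reverse held for 11. Scores of at least 10 in Sertoli cells were listed for 4995 promoter pairs (27.3%) and in pre-granulosa cells for 3253 (17.8%), so members are 45.8% of the first and 70.4% of the second.

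**Figure D2:**
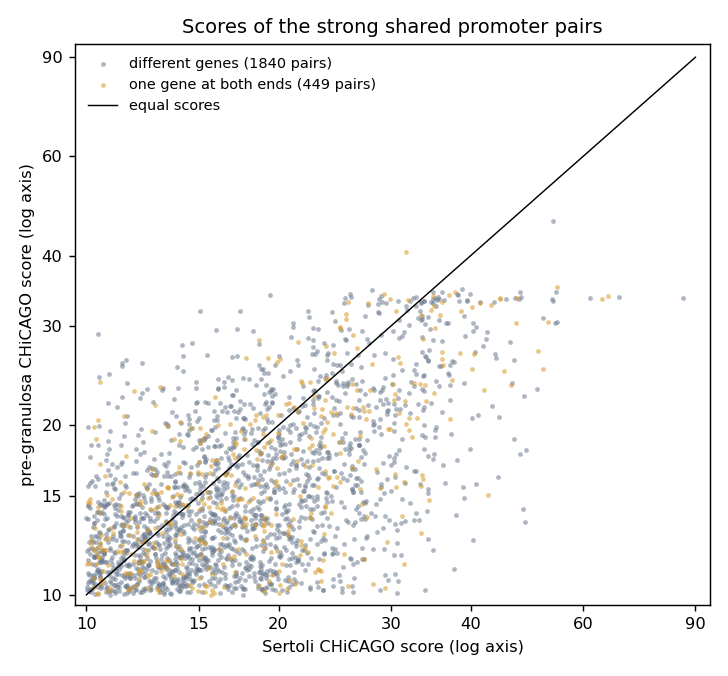
Sertoli score (x axis) against pre-granulosa score (y axis) of each strong shared promoter pair, both on log axes, with pairs of different genes in grey-blue, pairs with the same gene at both ends in yellow and a line of equal scores. More pairs (1520 of 2289) lie below the line, where the Sertoli score is higher, and few pre-granulosa scores pass 35.

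Pre-granulosa scores were bunched between 33 and 34. Over all rows of the table, 66 had a pre-granulosa score from 33 to under 34, against 23 from 32 to under 33 and 1 from 35 to under 36. Sertoli scores showed a smaller rise there, with 53, 31 and 22 rows, and 104 members had a Sertoli score of 36 or more against 2 with such a pre-granulosa score. By the row used, the pair with the highest lower score lies clear of this bunch. Its pre-granulosa score from the other end (33.1) lies within it, so its lead depends on the row. The order of the pairs after it rests on small differences. Only 5 rows had a pre-granulosa score of 36 or more. Whether the way scores were computed limits them near this bunch was not tested, so the size of Sertoli-higher differences among the strongest pairs is uncertain.

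The pair with the highest lower score joined Znrf1, which encodes a ubiquitin ligase, with Ldhd, the gene of mitochondrial D-lactate dehydrogenase. On chromosome 8 the bins from 111533509 to 111538749 and from 111627531 to 111632532 lie 93.9 kb apart. Read from the promoter given the higher scores, the pair had 53.8 in Sertoli and 46.1 in pre-granulosa cells, and read from the other end 41.2 and 33.1. No gene lies between them, and both are the genes whose promoters carry the facing CTCF cores printed above. This pair and a Ptpn6 pair stood out in Sertoli cells among the leading 5.

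The next pairs ran along short distances. Different promoters of Ptpn6, the gene of the phosphatase SHP-1, which is best known from blood cells, made contact over 10.7 kb (54.7 in Sertoli and 35.1 in pre-granulosa cells) and over 21.5 kb (65.7 and 33.9). Hdhd3 contacted Alad, an enzyme of haem synthesis, over 15.6 kb (38.8 and 34.9). Promoters of Shf, an adaptor protein, scored 37.7 and 34.5 over 11.0 kb. Zbtb45, a zinc finger gene, reached a bin of Chmp2a, a part of the ESCRT-III membrane machinery, and Ube2m, the NEDD8-conjugating enzyme, over 22.4 kb and 2 genes between (36.04 and 34.5). By the rows used the Sertoli score was the higher in these 5 pairs, but from the other end Hdhd3 with Alad (22.2 and 31.005) and the Shf pair (30.2 and 36.04) had the higher score in pre-granulosa cells.

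Among the other leading pairs, Nr6a1, which encodes the orphan receptor germ cell nuclear factor, contacted Wdr38 over 69.7 kb with 34.9 in Sertoli and 34.4 in pre-granulosa cells. Read from the other end the Sertoli value was 103 and the pre-granulosa value 33.8, so the ends of a contact can be far apart. A bin of Cfap126, a gene of ciliated cells, lay 102.6 kb from a bin of Tomm40l and Apoa2 with 4 genes between, and scored 54.4 and 34.5. Ndufs3, a subunit of respiratory complex I, shared a bin with Kbtbd4 that contacted Ptpmt1, a mitochondrial phosphatase gene, over 15.6 kb (39.97 and 34.2). Other leaders were Tulp2 with Ppp1r15a and Plekha4 (38.1 and 34.3), Ogfr with Col9a3 (38.3 and 34.03), promoters of Tmcc1 (36.9 and 34.02) and of Cdc42bpa (34.9 and 33.9), and Snx14 with Syncrip (35.6 and 33.8).

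Only 61 members (2.66%) spanned more than 200 kb. Of these, 45 had the higher score in Sertoli cells, 14 had no coding gene wholly between their ends and 1 joined promoters of the same gene. That gene was Mecom, which encodes the transcription factor EVI1, with starts 496 kb apart on chromosome 3. Its scores were 25.5 in Sertoli and 30.8 in pre-granulosa cells, and from the other end 19.9 and 31.7.

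The longest member joined the predicted genes Gm14393 and Gm14412 on chromosome 2 over 2254 kb, with 21 protein-coding genes between them. It scored 22.5 in Sertoli and 13.6 in pre-granulosa cells, and almost the same from the other end (22.8 and 12.9996). RefSeq lists Gm14412 as a pseudogene. Closely similar gene copies can draw each other's reads, and the part of this in the score was not tested.

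The other long pairs spanned 384.1 to 621.3 kb. A bin of Scfd2 and Fip1l1 contacted Pdgfra, a receptor for platelet-derived growth factor, over 621.3 kb, with 13.6 in Sertoli and 10.5 in pre-granulosa cells. Ccdc82 contacted Mtmr2, a phosphoinositide phosphatase gene, over 502 kb (21.3 and 10.5). Umad1 contacted Ica1 over 462 kb and scored higher in pre-granulosa cells (12.4 and 15.5). The pair of Azi2 and Golga4, a Golgi protein gene, had 24.7 and 13.1 over 453.9 kb. Tmprss5 and Ttc12 had 51.9 and 31.1 over 406.4 kb, and 45.3 and 30.5 from the other end, the highest Sertoli and pre-granulosa scores of the 10 longest pairs by the rows used. Manf contacted Mapkapk3 over 395.9 kb (14.8 and 13.3). Lmntd1 contacted Rassf8 over 384.1 kb, with 48.6 in Sertoli and 13.4 in pre-granulosa cells.

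Some long members lay in the imprinted stretch of chromosome 7, where genes are expressed from the copy of a single parent. Kcnq1, a potassium channel gene, contacted Phlda2, a growth-restraining gene of the placenta, over 398.1 kb with 12.02 in Sertoli and 11.1 in pre-granulosa cells. Trpm5 contacted Slc22a18 over 376.0 kb (14.0 and 14.6). Mrpl23 contacted Igf2, the gene of insulin-like growth factor 2, over 125.3 kb with 17.6 and 20.6. The scores do not separate the parental copies. Trpm5 with Slc22a18 was singled out after its values were seen.

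Different promoters of the same gene made up 449 members (19.6%, 18.0 to 21.3), from 342 genes. Among the other listed pairs the share was 10.7%. It was the same for members and others between 10 and 20 kb (30.5% each), and 8.14% (5.79 to 11.3) and 5.91% (5.23 to 6.66) between 50 and 100 kb. These contacts spanned a median of 11.8 kb (11.4 to 15.7), and pairs of different genes 27.0 kb (26.2 to 27.7). Same-gene pairs had median scores of 17.7 in Sertoli and 15.01 in pre-granulosa cells, and pairs of different genes 16.9 and 14.2. Wnk1, a kinase of salt transport, held 8 such pairs, Ptpn6 6, and Atxn2, Kifc3, Mical3 and Phldb1 5 each. The leading pairs of the list of developmental regulators were of this kind. Promoters of Zic4 (44.5 in Sertoli and 33.6 in pre-granulosa cells), Pax6 (43.1 and 32.6) and Lhx2 (33.7 and 28.5), transcription factors of the brain and eye, each contacted themselves over 10.6 to 11.3 kb.

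The genes at member bins were nearly all protein-coding. Of 2470 genes named there, 2438 matched a RefSeq gene, and 2419 of these (99.2%, 98.8 to 99.5) were protein-coding. Another 9 were lncRNA genes, 6 pseudogenes and 4 transcribed pseudogenes. Of the matched genes found only at other bins, 98.9% (98.5 to 99.1) were protein-coding. A protein-coding gene was named at both ends of 97.8% of the members and 97.4% of the other pairs. No bin of a small RNA gene was among the 10621 bins of listed promoter pairs.

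Pairs of different genes with the same symbol stem, a rough sign of a shared family, made up 10.6% of the members (9.38 to 11.9) and 14.1% of the other pairs (13.6 to 14.6). Among pairs of different genes alone the shares were 13.2% (11.7 to 14.8) and 15.8% (15.2 to 16.4). Leaving out the olfactory receptor pairs too, they were 5.83% (4.82 to 7.05) and 6.09% (5.69 to 6.52), and the intervals overlapped. With all pairs counted, the members had the lower share within distance classes up to 100 kb, while beyond it the intervals overlapped, with 14.7% (12.7 to 17.0) against 19.9% (18.3 to 21.6) between 10 and 20 kb and 4.72% (3.01 to 7.34) against 11.5% (10.5 to 12.5) between 50 and 100 kb. Olfactory receptor genes gave 143 of the 242 such members.

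Among the smaller families, the S100 calcium-binding proteins on chromosome 3 had 12 members of 45 listed pairs (26.7%, 16.0 to 41.0). They spanned 10.3 to 69.1 kb, with Sertoli scores from 10.4 to 37.1 and pre-granulosa scores from 10.8 to 30.9, and the Sertoli score was higher in 10. Over all listed pairs 12.5% were members. The beta-defensin genes had 6 of 41 pairs (14.6%, 6.88 to 28.4) and the Hoxa genes 5 of 27 (18.5%, 8.18 to 36.7), and both intervals include that share. Hyal2 and Hyal3, hyaluronidase genes of chromosome 9, contacted over 11.6 kb with 47.7 in Sertoli and 33.6 in pre-granulosa cells. Cxcl9 and Cxcl10, chemokine genes that interferon induces, contacted over 16.2 kb with 33.4 and 32.9. St6galnac4 and St6galnac6, sialyltransferase genes, had 31.8 and 32.02 over 11.5 kb.

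The Hox list, genes that pattern the body axis, had 7 members of 52 listed pairs (13.46%, 6.68 to 25.3), close to the 12.5% of all pairs. The promoter bin of Hoxa9 was an end of all 5 that joined different Hox genes. Hoxa9 contacted Hoxa10 at 10.8 kb (22.8 in Sertoli and 26.7 in pre-granulosa cells) and at 16.6 kb (18.1 and 18.5). It contacted Hoxa7 (12.1 and 17.8), Hoxa11 (11.6 and 20.7) and Hoxa6 (18.7 and 11.0). The pre-granulosa score was the higher in 4 of these 5 pairs. Promoters of Hoxd3 contacted each other over 10.4 kb (16.0 and 17.4).

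Olfactory and vomeronasal receptor genes, the receptors of smell and pheromones, were the most frequent list. They held 236 member bins (8.04%, 7.11 to 9.08) and 770 of the other promoter bins (10.02%, 9.37 to 10.7). Of the 2057 listed pairs with such a gene, 169 were members (8.22%, 7.11 to 9.48), against 12.5% of all pairs. From 20 kb the share was 2.96% (2.23 to 3.93) against 8.48% (8.05 to 8.94) over all pairs, and under 20 kb it was 24.4% (20.9 to 28.3) against 31.2%. The Sertoli score was the higher in 76 of the 169 (45.0%, 37.7 to 52.5), and in 68.1% (66.1 to 70.1) of the members without such a gene. Olfr1256 and Olfr48 scored 32.4 in Sertoli and 33.6 in pre-granulosa cells, Olfr1277 and Olfr1278 31.6 and 32.5, Olfr639 and Olfr640 35.6 and 30.8, and Olfr693 and Olfr694 28.96 and 28.9, all under 16 kb. Olfactory receptor genes resemble each other in sequence, so some of their reads may have been placed at a relative, and this was not tested.

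Other tandem families, among them defensins, cytochromes P450, serpins and protocadherins, also had few members, 21 of 326 pairs (6.44%, 4.25 to 9.65). Lce1i and Lce1j, genes of the skin's cornified envelope, scored 23.7 in Sertoli and 24.6 in pre-granulosa cells over 11.98 kb. Defb33 with Gm15056 had 20.7 and 19.7, Cox19 with Cyp2w1 18.8 and 17.4, and Ugt1a8 with Ugt1a7c 15.9 and 18.4.

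By its full symbol pattern, the cell cycle and DNA repair list had the highest share of members, 59 of 309 pairs (19.1%, 15.1 to 23.8), against 12.5% of all pairs. From 20 kb the share was 15.9% (11.99 to 20.8) against 8.48%, and under 20 kb 37.8% (25.1 to 52.4), an interval that includes the 31.2% of all pairs. By bins the list did not stand apart, with 1.06% of the member bins (0.75 to 1.495) and 0.95% of the other bins (0.76 to 1.19). Its symbol pattern also took in genes of CDC42 signalling, such as the kinase gene Cdc42bpa and Cdc42se1, which contacted Bnipl (41.3 in Sertoli and 33.1 in pre-granulosa cells). Without them, a change made after the values were seen, 50 of 282 pairs were members (17.7%, 13.7 to 22.6). That is close to the 17.4% of the cytosolic ribosomal protein genes. From 20 kb the share without them was 14.8% (10.9 to 19.8). Several members of the list share a single bin of Anapc2 on chromosome 2, so they are not independent of each other. Ercc1, a gene of nucleotide excision repair, contacted a bin of Cd3eap and Ppp1r13l over 10.3 kb with 39.5 and 33.2. Bins with promoters of Anapc15, a part of the anaphase-promoting complex, contacted each other over 10.7 kb (36.02 and 33.1). Ccni and Ccng2, which encode cyclins I and G2 and whose promoters are printed above, contacted over 64.7 kb with 40.4 and 30.4, and another Ccni promoter reached Ccng2 over 81.2 kb with 15.5 and 15.2. These were the only members that joined different genes of this list.

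Genes of the ribosome and of mitochondria came next. Cytosolic ribosomal protein genes had 28 members of 161 pairs (17.4%, 12.3 to 24.0), and genes of the mitochondrial ribosome, import and respiration 61 of 381 (16.0%, 12.7 to 20.03). From 20 kb the shares were 13.1% (8.33 to 19.9) and 11.1% (8.13 to 14.999), and both intervals include the 8.48% of all pairs. Under 20 kb they were 35.5% (21.1 to 53.1) and 43.9% (31.8 to 56.7), against 31.2% of all pairs, which the mitochondrial interval does not include. The bin of Rplp2 and Pidd1 contacted Pnpla2, the main triglyceride lipase of fat cells, with 43.4 in Sertoli and 33.1 in pre-granulosa cells, and Cracr2b with 31.5 and 29.3. Cox8b, a subunit of cytochrome oxidase, contacted Scgb1c1 over 58.3 kb and 5 genes with 34.97 and 33.5. A bin of Atp5j2, of the ATP synthase, contacted Zkscan14 with 36.3 and 33.4. No member joined different genes within either list.

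**Figure D3:**
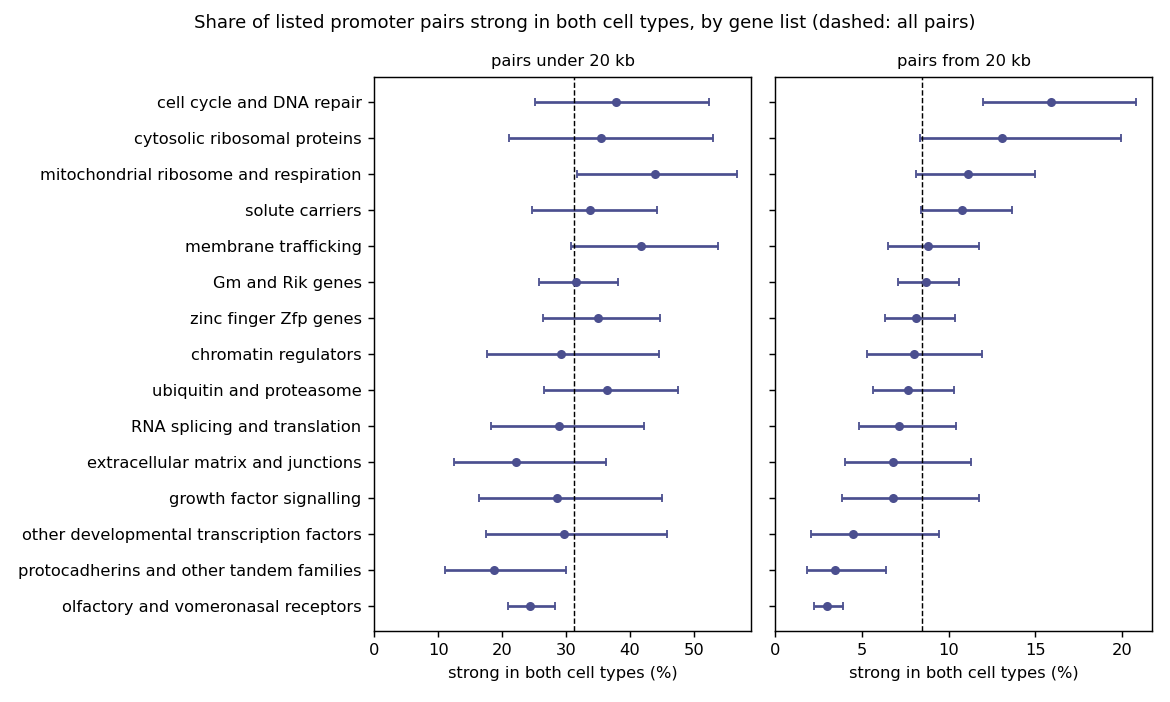
Share of listed promoter pairs with both scores at least 10, in percent (x axes), for each gene list with at least 100 listed pairs (y axis), under 20 kb (left) and from 20 kb (right); bars are 95% Wilson intervals and dashed lines show all pairs, 31.2% and 8.48%. From 20 kb the cell cycle list, drawn with its CDC42 genes, lies above the line with its interval, and the tandem family and receptor lists lie below it.

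For the cytosolic ribosomal list and the lists that follow, the interval included the share over all pairs. Membrane trafficking genes had 68 members of 522 pairs (13.03%), solute carriers 86 of 616 (14.0%), ubiquitin and proteasome genes 66 of 575 (11.5%), and zinc finger genes of the Zfp type 92 of 804 (11.4%). RNA splicing and translation genes had 39 of 388 (10.1%), chromatin regulators 33 of 304 (10.9%), growth factor signalling genes 21 of 197 (10.7%) and genes of extracellular matrix and junctions 23 of 236 (9.75%, 6.58 to 14.2). Canonical histone genes had 5 of 47 (10.6%), other developmental transcription factors 17 of 171 (9.94%), and genes with only a Gm, Rik or clone name 153 of 1203 (12.7%). The Sertoli score was the higher in 66.4% of all members. The list intervals that left this share out were those of the ubiquitin members, above it (53 of 66, 80.3%, 69.2 to 88.1), and of the olfactory and Hox members, below it, the latter with 2 of 7 (28.6%, 8.22 to 64.1).

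Leading pairs of these lists are given as examples. Usp19, a deubiquitinase gene, contacted Qars, which encodes glutaminyl-tRNA synthetase, over 15.6 kb with 45.4 in Sertoli and 33.4 in pre-granulosa cells. A bin with Rnf224 and Slc34a3 contacted one with Rnf208 over 10.5 kb (50.8 and 23.2). Gtf3c2, of transcription factor TFIIIC, shared a bin that contacted Eif2b4 and Snx17 over 10.6 kb (32.1 and 33.2). Read from the other end, the same contact was listed at 0 in Sertoli cells and at 33.3 in the other cell type. Such a 0 was seen in the other row of 18 members, 15 times in Sertoli cells and 3 times in pre-granulosa cells, and may be a value that could not be estimated.

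Hnrnpl, a splicing regulator, contacted Lgals7 over 56.2 kb with 30.9 in Sertoli and 30.7 in pre-granulosa cells. Among chromatin regulators, promoters of the remodeller gene Chd9 lay 124.7 kb apart (38.7 and 31.9), Kmt2b, a histone H3K4 methyltransferase gene, contacted Igflr1 (33.6 and 24.5), and Prmt1, an arginine methyltransferase gene, contacted Scaf1 and Rras (30.3 and 20.2). Hipk1 contacted a bin of Dclre1b and Ap4b1 over 16.4 kb (39.5 and 33.4), and Vamp5 contacted its relative Vamp8 (20.7 and 10.7). H2afj and Hist4h4 shared a bin that contacted Wbp11 (19.8 and 25.6). The zinc finger genes gave 23 members between different genes of the list. Zfp553 with Zfp771 had 36.6 and 30.4, and Zfp30, Zfp420 and Zfp27 formed a chain on chromosome 7 with 17.0 and 21.2 over 76.4 kb and 16.0 and 20.4 over 42.9 kb. Slc24a5 and Slc12a1 were the only solute carriers of different genes to meet (18.1 and 11.6 over 85.5 kb). The growth factor list was led by genes that are no growth factors, a bin of Igfn1 and Tmem9 (35.2 and 29.7) and Igflr1, and the developmental list also took in Foxred1, which encodes an oxidoreductase.

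Few markers of the supporting cells themselves could be examined. Of 28 marker genes, 9 had a promoter bin in a listed pair and 4 were at member bins. Lef1, Nr5a1, Ptgds, Rspo1 and Wt1 were at none. Col9a3, a collagen gene of the early testis, contacted Ogfr over 10.4 kb with 38.3 in Sertoli and 34.03 in pre-granulosa cells. Defb19, a defensin gene of Sertoli cells, contacted Defb45 (15.2 and 12.6) and Defb21 (11.6 and 13.6). Cst9, the testatin gene of early testis development, contacted its family member Cstdc2 over 15.5 kb with 19.2 and 10.3. Lhx9, a transcription factor gene needed for the gonad to form, contacted Dennd1b over 114.3 kb with 11.4 and 10.04. Read from the other end, the Col9a3 pair (18.98 and 24.1) and the Lhx9 pair (9.991 and 12.3) had the higher score in pre-granulosa cells. By the rows used the Sertoli score was the higher in 4 of these 5 pairs (80.0%, 37.6 to 96.4), an interval that includes the 66.4% of all members. The 5 were members of 42 listed pairs with a marker (11.9%, 5.19 to 25.0004), close to the 12.5% of all pairs.

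As a network, the members were mostly small and local. Of the 2935 bins, 2020 (68.8%) had 1 strong shared partner, 554 had 2 and 98 (3.34%) had 5 or more. The pairs formed 918 connected groups, of which 539 were a single pair and 28 held at least 10 bins, with 360 bins among them. Of 2594 sets of 3 bins joined by at least 2 members, 252 (9.71%, 8.63 to 10.9) were closed as triangles. In 56.9% of the open sets the outer pair was listed without reaching 10 in both cell types.

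**Figure D4:**
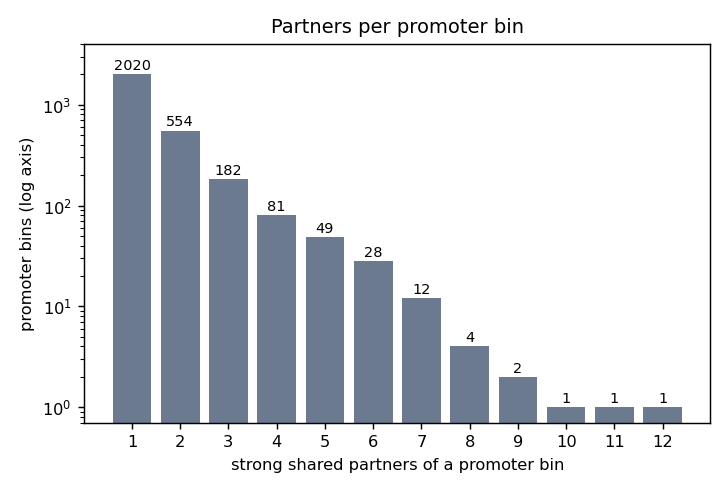
Number of promoter bins (y axis, log axis, with counts above the bars) by their number of strong shared partners (x axis). Most bins (2020) have a single partner, and 1 bin has 12.

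The bin with most partners lay on chromosome 7 from 126949229 to 126954619. It holds promoters of Asphd1 and Sez6l2, a membrane protein gene of neurons, and had 12 strong shared partners among 24 listed. They lay 22.3 to 170.2 kb away, with Sertoli scores from 10.5 to 30.7 and pre-granulosa scores from 10.4 to 19.6. Among them were Doc2a (26.1 and 10.4), a bin of Ino80e and Hirip3 (30.7 and 13.01), Taok2 (19.8 and 11.0), Cdipt, which makes phosphatidylinositol (15.7 and 19.6), Maz with Kif22 (13.8 and 11.3) and Qprt (13.7 and 13.9).

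The bin of Sema3b, a secreted semaphorin gene, on chromosome 9 from 107605048 to 107610062, had 11 strong shared partners of 18 listed, all within 69.7 kb. On one side these were Hyal2 (21.8 in Sertoli and 15.3 in pre-granulosa cells), Hyal1 (11.4 and 13.7), Naa80 with Hyal3 (26.6 and 14.4), a bin of Hyal3 and Ifrd2 (23.3 and 13.99), a further Ifrd2 promoter (20.8 and 14.5) and Lsmem2 (33.96 and 30.2). On the other they were Gnai2, a G protein gene (40.4 and 29.4, and 29.1 and 23.1), Slc38a3 (19.6 and 17.2, and 21.0 and 29.9) and Gnat1 (29.2 and 23.4). The Sertoli score was the higher in 9 of the 11.

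The bin of Med19, a Mediator subunit gene, and Tmx2 on chromosome 2, from 84677557 to 84682821, had 10 strong shared partners of 14 listed. The nearest was Selenoh at 10.4 kb (29.5 in Sertoli and 32.97 in pre-granulosa cells). It was followed by Btbd18 (26.0 and 24.1) and Ctnnd1, the gene of p120-catenin (22.2 and 31.9), and on the other side by Zdhhc5 (21.3 and 17.0), Clp1 (25.8 and 18.4), Ypel4 (22.8 and 19.9), Gm19426 (23.4 and 13.3) and Ube2l6 (12.9 and 16.5). The farthest were promoters of Tfpi, the gene of tissue factor pathway inhibitor, at 206.0 kb (16.7 and 12.9) and 223.1 kb (31.6 and 15.8). No other partner was listed between Tfpi and Ctnnd1 (28.1 kb).

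Further hubs were a bin of Scaf1 and Rras on chromosome 7 and a bin of Parp3 and Rrp9 on chromosome 9, with 9 strong shared partners each, of 25 and 12 listed. At Scaf1 and Rras the strongest was Irf3, an interferon regulatory factor gene, 16.2 kb away (68.2 in Sertoli and 33.7 in pre-granulosa cells). Prr12 had 34.1 and 26.4. At Parp3 and Rrp9 all 9 lay on the same side, from Gpr62 at 11.8 kb (12.8 and 19.4) over Pcbp4, Abhd14b (43.8 and 26.3) and Acy1 (21.1 and 30.3) to Rpl29 (14.3 and 15.6) and Poc1a at 198.4 kb (12.4 and 15.6).

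**Figure D5:**
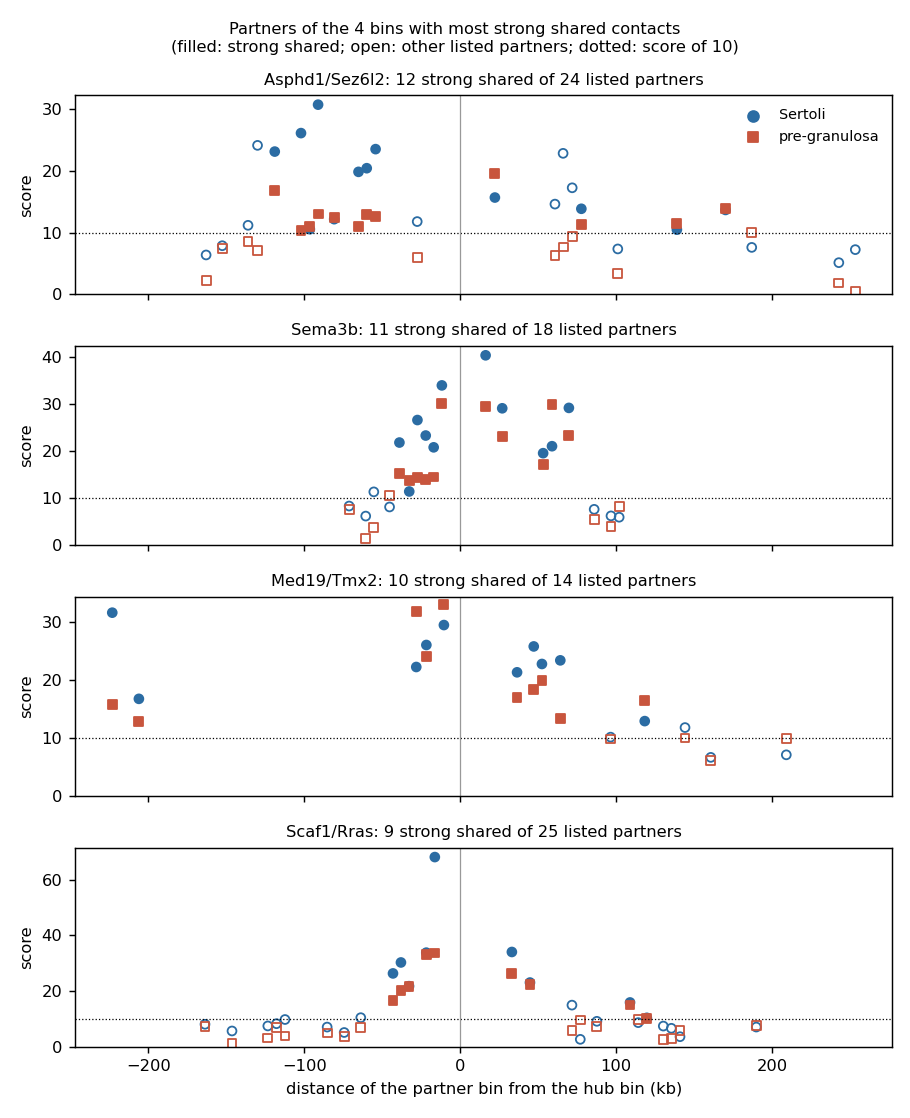
CHiCAGO score (y axes) of every listed promoter partner by its distance from the hub bin in kb (x axis), for the 4 bins with most strong shared contacts, with Sertoli scores as circles and pre-granulosa scores as squares; filled symbols are strong shared contacts, open symbols other listed partners, and the dotted line marks a score of 10. Strong shared partners of Sema3b lie within 69.7 kb on both sides, and those of Med19 and Tmx2 include a separate pair beyond 200 kb. The bin of Scaf1 and Rras ties at 9 partners with the bin of Parp3 and Rrp9, which is not drawn.

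The largest connected group held 20 bins and 18 genes over 270.2 kb of chromosome 7. It ran from the channel gene Trpm4 to the amino acid transaminase gene Bcat2 and took in Snrnp70, Lhb, which encodes the beta subunit of luteinizing hormone, Ruvbl2, Gys1, Ftl1, Nucb1 and Ppp1r15a. Its 23 pairs had a median of 21.5 in Sertoli cells (11.4 to 42.0) and 13.9 in pre-granulosa cells (11.9 to 34.3). A second group of chromosome 7 held 19 bins over 418.6 kb, from Zfp146 to Kmt2b, with Cox7a1, Polr2i, Clip3, Nfkbid, Nphs1, the nephrin gene, and U2af1l4 (medians 17.1 and 13.1 over 19 pairs). Another, of 19 bins and 25 pairs, held the Asphd1 and Sez6l2 hub (16.5 and 11.96). A group on chromosome 9 held 18 bins in 189.5 kb with Cbl, Hinfp, H2afx, the damage-marking histone gene, Vps11 and Hyou1, and 26 pairs (14.8 and 12.9). It tied in bins with the group of the Sema3b hub, which held 36 pairs over 211.9 kb (20.2 and 14.96). The Sertoli score was the higher in 17 of 23, 11 of 19, 17 of 25, 16 of 26 and 27 of 36 pairs of these groups.

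Members differed most towards Sertoli cells at Lmntd1 with Rassf8, given above. There followed Unc45a and Hddc3 with Man2a2 (48.3 in Sertoli and 14.2 in pre-granulosa cells), Polr2i and Ovol3 with Clip3 (37.6 and 11.1), Clpx with Ubap1l (33.9 and 10.2) and Rlbp1 with Polg, the mitochondrial DNA polymerase gene (40.4 and 12.5). Towards pre-granulosa cells, S100a3 with S100a7a (10.4 and 29.03) led Cdca8 with Gnl2 (10.5 and 24.4), promoters of Odf3l1 (10.5 and 23.9), Pex11g with a bin of Mcoln1 and Pnpla6 (11.3 and 25.8) and a pair of lipocalin bins, Lcn8 with Lcn6 and Lcn10 (10.9 and 24.7). All 10 kept their direction when read from the other end. Over all members the median difference of asinh scores, Sertoli minus pre-granulosa, was 0.13 (0.11 to 0.14).

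Members just inside the threshold were Abl1 with Qrfp (10.9 in Sertoli and 10.001 in pre-granulosa cells), promoters of Add1 (15.6 and 10.003), Hsd11b1 with Camk1g (17.6 and 10.01) and Tmem265 with Ccdc189 and Rnf40 (10.01 and 10.2). Just outside were Nlrx1 with Vps11 (11.4 and 9.9996), Man2c1 with Neil1 (16.2 and 9.998), Mcm2 with Tpra1 (14.8 and 9.998), Rhoa and Tcta with Usp4 (9.997 and 17.1) and Tada3 and Arpc4 with Ttll3 (9.997 and 15.4).

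A contact can be listed from either end, and 2139 members (93.4%) were listed from both. Both rows reached 10 in both cell types for 793 of these (37.1%, 35.1 to 39.1), and both reached 5 for 87.8%. The row not used for a member had a median of 10.5 in Sertoli and 9.95 in pre-granulosa cells. Both rows gave the Sertoli score as the higher in 1060 pairs and the pre-granulosa score in 630. A second deposited table, from the same libraries, uses single fragments as baits. Of the 2221 members with a bait there, 650 scored at least 5 in both cell types (29.3%, 27.4 to 31.2), against 2.81% of the other promoter pairs (2.55 to 3.09) and 6.37% of all. Since the libraries are the same, this is no replicate.

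Promoter sequence was compared gene by gene. A RefSeq promoter was found for 2078 of the 2470 genes at member bins (84.1%) and for 4508 of 5488 genes found only in other pairs (82.1%). For 1875 of the 2470 (75.9%) a RefSeq promoter lay in the bin itself. Some of the compared promoters therefore lie outside the contacting bins. The median CpG ratio was 0.59 (0.57 to 0.62) for the first and 0.59 (0.57 to 0.61) for the second, and 0.38 over all promoters of the table. Median GC content was 57.0% and 56.7%. The ETS motif lay in 15.1% (13.6 to 16.7) of the promoters of member genes, 11.98% (11.1 to 12.96) of those of the other genes and 8.86% of all. The letters of the TATA box, counted anywhere in the promoter sequence, lay in 10.8% (9.52 to 12.2), 14.1% (13.1 to 15.2) and 13.6%. Olfactory receptor genes held a smaller share of the member bins than of the other bins, as given above, and their part in these shares was not tested.

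Intervals overlapped for the other motifs. The CTCF core lay in 10.7% (9.43 to 12.1) and 10.9% (10.04 to 11.9) of the promoters, YY1 in 6.50% and 6.28%, NRF1 (GCGCATG) in 5.77% and 5.04%, Sp1 in 32.9% and 31.7%, NFY in 38.2% and 38.3%, and ZBTB33 (TCTCGCG) in 3.75% in both. Where each end had promoters on a single strand, 52.7% of 848 members ran in the same direction, 26.2% away from each other and 21.1% towards each other. Among the other pairs the shares were 53.9%, 23.6% and 22.5%, and the interval of the divergent share in members (23.3 to 29.2) overlapped theirs (22.5 to 24.6).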

How the data were processed

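Capture Hi-C contacts of 3 Sertoli and 2 pre-granulosa libraries were taken from the authors' deposited tables of CHiCAGO scores, with 1 score column per cell type, per the file headers. Reads were placed on mm10, per the submitters' processing notes; versions, read filters and how libraries were combined are not given in the sources used here. Rows were kept where the distance was given, the bait lay on chromosomes 1 to 9 and the other end carried a promoter name. Of a pair listed from both ends, the row with the higher lower score was used. A row is listed only where a score reached 5. Neither read depth nor replicate spread is known, so shares have 95% Wilson intervals, medians 95% order-statistic intervals, and no test was run.

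Genes, 19 lists defined by symbol patterns and 8 motifs were matched to RefSeq tables of GRCm38.p6 (7867 of 7958 genes matched). Genes between the ends are protein-coding genes lying wholly between the bins. Motifs were searched on both strands in the promoter nearest to a gene's bins. A first version of that comparison, by bin, covered too few bins and was not used. The symbol stem rule, the distance classes of lists, the motif and density comparisons and the printed promoters were settled after values had been seen, and members and lists were chosen with earlier results of these data known. Named pairs are the 15 with the highest lower score, the 10 longest, 5 on each side of the threshold, 5 with the largest asinh difference each way, 5 hubs, 4 groups, up to 6 family pairs and up to 4 pairs per list; others were chosen after their values were seen. Some pairs that this rule names are not reported here. Procedures were tested on simulated data. Python 3.11.15, pandas 2.3.3, scipy 1.17.1 and networkx 3.6.1 were used.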

Additional observations from a re-analysis of the deposited data

Results flagged for a closer look

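Signal also appeared in promoter pairs that the description leaves out. On the X chromosome 22 of 326 listed promoter pairs (6.75%, Wilson interval 4.50 to 10.01) had both scores of at least 10, against 12.5% on chromosomes 1 to 9. Their median score was 13.4 in Sertoli and 16.3 in pre-granulosa cells, and the Sertoli score was the higher in 8 of the 22. The highest lower score was that of a bin of Dnase1l1 and Taz, the tafazzin gene, with Atp6ap1, a subunit of the proton pump, at 30.3 and 33.6 over 17.0 kb.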

How the results depend on the processing

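No paired analysis was possible because a cell type's libraries share 1 score column, which also means that none of them could be left out. 5 alternatives were tried. The share of pairs with a protein-coding gene at both ends moved under none of them. At a threshold of 7 there were 4608 members (25.2% of the pairs) with a median distance of 27.4 kb, 64.2% with no coding gene between and 40.6% of bins with several partners, both rows passed for 46.9%, and 19.3% were found with the original baits. At 13 these values were 1224, 6.69%, 20.6 kb, 73.2%, 24.8%, 30.9% and 38.4%. From 25 kb they were 1086, 7.85%, 57.9 kb, 44.5%, 26.0% and 34.9%, the family share was 6.63%, the median asinh difference 0.14, the median CpG ratio 0.64 and the share of member bins with a listed gene 21.5%, against 26.7% over all members. Requiring both rows left 793 members (8.37% of pairs listed from both ends), a median of 21.4 kb, a family share of 7.82%, 23.4% of bins with several partners, a median difference of 0.15 and 44.7% found with the original baits. Without pairs of the same gene the share was 11.4%, the median distance 27.0 kb, the share with no coding gene between 62.3% and the family share 13.2%. The cause of these changes was not tested, beyond the fewer or more pairs that each alternative admits.

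The scores have no replicate spread, and the depth behind them is unknown. A listed pair needs a score of 5 in either cell type, so shares are shares of listed pairs and not of all promoter pairs. Pre-granulosa scores bunch between 33 and 34. The lead of the strongest pair depends on the row used, and the order of those after it rests on small differences.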

Other observations

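Contacts between different chromosomes were not part of the description. The table listed 253 of them, of which 17 joined promoters, and 2 had both scores of at least 10.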
